A study of Canis lupus familiaris with 59 samples.

Results

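Tumours 37 to 46 are 10 libraries of a series of 59, which holds 49 canine adrenocortical tumours that secrete cortisol and 10 normal adrenal cortices labelled healthy. They were compared with 29 other tumours, numbered 1 to 26 and 47 to 49 in the titles. Tumours 27 to 36 were left out of the comparison, and the normal cortices were used only as a reference level. The numbers are those of the library titles. All groups carry the same labels within a disease class, and no label gives a treatment, genotype, breed, age, sex, tumour subtype or batch. The labels do not say whether the libraries come from separate dogs, so the spread between libraries may be partly technical. The protocol text speaks of trypsinized cells and of RNA isolated on a column, while the labels name tumours and cortices. Each library was made with CEL-Seq2, in which the 3′ end of a transcript is read together with the library's barcode and a UMI (unique molecular identifier), a random tag that lets copies of a molecule be counted once.

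Steroid hormones are made from cholesterol in the adrenal cortex, the outer layer of the gland. Cortisol comes from its middle and inner zones under the control of the pituitary hormone ACTH, and a tumour that releases cortisol on its own is a cause of canine Cushing's syndrome. The series title speaks of subtypes among such tumours, but the labels place no tumour in one. The run of tumours 37 to 46 is therefore a run of consecutive numbers and not a class that the labels name.

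The run was chosen from these data. Among runs of consecutive numbers it had stood apart in a test of gene levels over the whole series, so the gene levels of these 10 libraries have already been used. Calls, folds and correlations between the run and other libraries are given as a description and support nothing. A batch shared by the 10 libraries cannot be told apart from a class of tumours that were numbered together, since the labels give neither. The library total is the measure that the choice did not use, and it is the one difference tested here.

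Library totals were close to each other in the run. They lay between 1597111 counts in tumour 38 and 2551958 in tumour 41, with a median of 2154930. The 29 other tumours reached from 1007920 to 5449077. On the log2 scale the totals averaged 21.01 ± 0.19 (SD, n = 10) in the run and 20.96 ± 0.60 (SD, n = 29) in the others. The difference of 0.05 was smaller than the SD of either group. A permutation test of the difference in means gave a two-sided p of 0.79. That test takes libraries as exchangeable between groups, while the spreads were unlike, and the difference in spread was not tested. Genes with a count numbered 19994 ± 986 in the run and 19491 ± 1189 in the others (SD). The 10 most abundant genes held 9.89% ± 0.82 of counts in the run and 11.2% ± 2.73 in the others (SD). Between 1 and 3 genes per member stood at 34070, the highest value in the table, against 0 to 18 in the others. To look for a library deposited more than once, the counts of each pair were compared by chi-square. The closest of the 45 pairs of members was tumours 44 and 45, at 4.78 for each degree of freedom, and the median pair was at 8.69. Among the 406 pairs of other tumours the lowest value was 7.00 and the median 21.2. No pair of members thus held the same counts. How close repeat counts of 1 library would be was not measured, and these values say nothing of whether members share a dog.

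The members resembled each other more than they resembled the rest of the series. Pearson's r of log2 CPM (counts per 1000000 counts, prior count 2) over 12145 genes had a median of 0.946 over the 45 pairs of members, with a range from 0.916 to 0.959. Over the 406 pairs of other tumours the median was 0.900 and the range ran from 0.732 to 0.950. Between the run and the other tumours the median was 0.897, with tumours 27 to 36 it was 0.888, and with the normal cortices 0.889. These correlations are across genes, which are not independent replicates, and all libraries share the abundant genes of the tissue. For all 10 members the most similar library in the series was another member. Each member nevertheless had libraries from outside the run among its 9 closest, which held between 6 members for tumour 37 and 8 for tumours 43 and 44. Tumour 44 was the least similar to the other members, at a mean r of 0.930, and tumour 46 the most, at 0.949. Tumour 44 also had the most genes with a count of all members, 22158, and tumour 38 had the fewest, 18711. The part of this in the similarities was not tested.

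**Figure D1:**
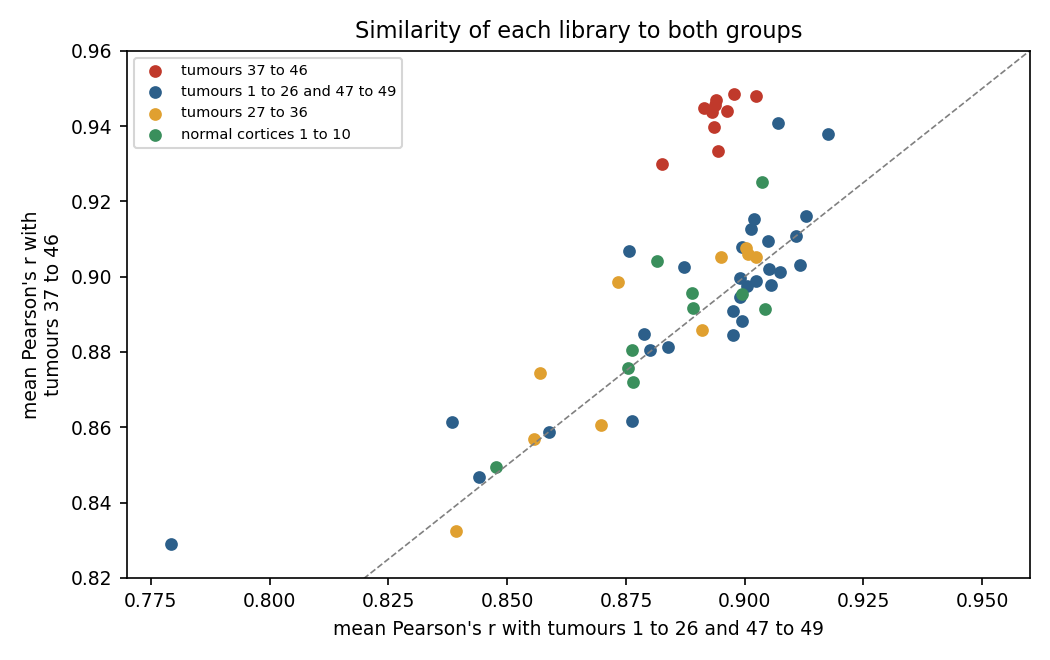
Each point is 1 of the 59 libraries, placed by its mean Pearson's r with tumours 1 to 26 and 47 to 49 (horizontal axis) and with tumours 37 to 46 (vertical axis), itself left out, with equal values on the dashed line. The members lie between 0.930 and 0.949 on the vertical axis, where tumour 49, at 0.941, and tumour 26, at 0.938, lie among them, while tumour 18 lies lowest, at 0.829.

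Gene levels varied less inside the run than among the other tumours. The SD of log2 CPM over libraries had a median of 0.35 in the run and 0.50 in the other tumours over the 12145 genes, and it was smaller in the run for 10306 genes (84.9%). The likeness of the members is part of how the run came to notice, so this too is a description. Library totals also spanned a wider range among the other tumours, and the part of depth in these SDs and in the correlations was not tested.

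Levels were fitted across all 12145 genes that passed the filter on low counts, with edgeR's quasi-likelihood model, and a gene was called where the Benjamini-Hochberg adjusted p was under 0.05. The call serves here to sort genes, and no p is given for a gene, since the run was picked for such differences. Of the genes tested, 902 were called (7.43%), 351 of them higher in the run (2.89%) and 551 lower (4.54%). Higher genes thus made up 38.9% of the calls. This split moved with several choices. With library totals alone 502 were higher and 368 lower (57.7% higher), and with no filter on low counts 356 and 329 (52.0%). Limma-voom gave 1456 and 1057 with sample weights (57.9%) and 588 and 322 without them (64.6%). The direction of the 902 genes held wherever they were tested, in each of 52 alternative fits. They were called in the same libraries, so this is no sign of stability. In bulk RNA, fewer cells of a type and less RNA per cell cannot be told apart.

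Most of the called differences were moderate. The median log2 fold change was 0.69 for the higher genes, with the middle 50% between 0.48 and 1.12, and -0.80 for the lower genes, with the middle 50% between -1.26 and -0.56. Over all genes tested the median was -0.04. Differences under 1.5-fold made up 143 of the higher and 145 of the lower calls. At least 2-fold were 107 higher genes (0.881% of those tested) and 205 lower genes (1.69%). The 107 became 175 when tumour 18 was left out of the reference and 71 with libraries thinned to 1 depth. At least 4-fold were 22 higher and 62 lower genes, and at least 8-fold 2 higher and 27 lower.

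A fitted fold compares means, and the same genes were therefore set beside the difference between group medians. Of the 107 genes at least 2-fold higher by the fit, 98 also had medians at least 2-fold apart, and of the 22 at least 4-fold higher all 22 had medians as far apart. Among the lower genes this held for 140 of 205 at 2-fold, 24 of 62 at 4-fold and 6 of 27 at 8-fold. For the 27 lower genes past 8-fold, the highest of the 29 other tumours held a median of 26.7% of the summed CPM of those tumours. Over all 551 lower genes that share was 7.55%. The 2 higher genes past 8-fold had a like share of 22.7%, and their highest member held a median of 27.7% of the summed CPM of the run. In 6 of the 27 lower genes, 1 member held over 50% of that sum. Among those 551 genes the highest of the other tumours was tumour 25 for 74 genes, tumour 23 for 40 and tumour 5 for 37. For the genes past 8-fold, then, most falls were smaller between medians than by the fit, while both rises were past 8-fold by either measure. The medians are of log2 CPM with a prior count of 2, which narrows differences at low levels. The part of this in the smaller falls was not tested, so they cannot be put down to means against medians alone.

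Calls were found at all levels of abundance. When the genes were split into 4 sets of rising average level, the lowest set had higher and lower calls in near equal number: 57 of 3037 were higher (1.88%) and 65 lower (2.14%). In the set with the highest average, 120 of 3036 were higher (3.95%) and 229 lower (7.54%). The share called was larger in each set than in the one below it, in both directions. Abundant genes are counted more precisely, and the part of this in the larger share was not tested. Of the called genes, 1 higher and 1 lower gene reached 34070 in a library. None of the 351 higher genes was at 0 counts in a member, and 31 of the 551 lower genes were at 0 in at least 1 member, but in no case in all 10.

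**Figure D2:**
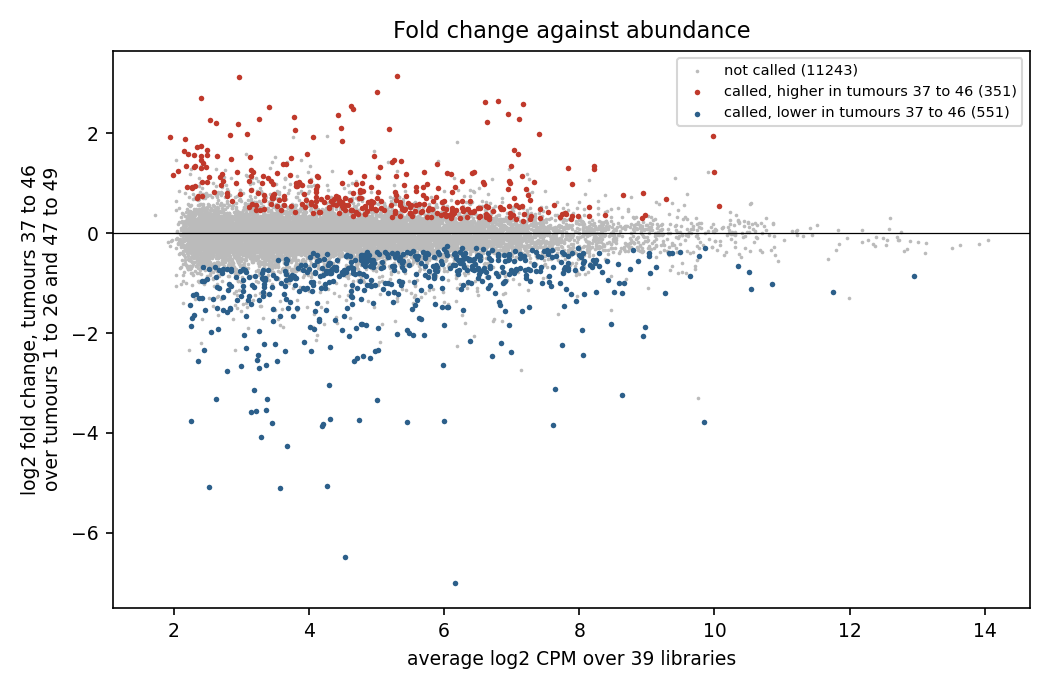
Each point is 1 of 12145 genes, with its average log2 CPM over the 39 libraries compared (horizontal axis) and its log2 fold change of tumours 37 to 46 over the 29 other tumours (vertical axis). The 351 genes called higher reach up to 3.15, and the 551 called lower reach down to -7.00.

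Groups overlapped for nearly all genes. In 1 gene of 12145 (0.00823%) all 10 members lay above all 29 other tumours, and in 0 genes (0%) all 10 lay below. Of the 290 pairs of a member and another tumour, the member was higher in a median of 88.3% for the 351 higher genes and lower in a median of 84.1% for the 551 lower genes. That share reached 95% in 38 higher and 15 lower genes. All 10 members lay beyond the median of the other tumours, on the called side, for 251 higher (71.5%) and 421 lower genes (76.4%). Over all 12145 genes, on the side of the fitted fold, this held for 1572 (12.9%). There the median pair share was 62.4%, and 54 genes reached 95%. The called genes were picked for such a difference, so their larger shares follow from the call.

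The gene identifiers could not be turned into names, since the deposited table holds only Ensembl identifiers, and 0 of the 28570 had a symbol in the reference used. Which pathways or cell types the called genes belong to was not analysed here, and the labelled tissue was not checked against marker genes. By a fixed rule 4 identifiers are given, the 2 in each direction whose levels parted the groups best among called genes of at least median abundance.

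ENSCAFG00000002876 is the gene in which the run lay above all other tumours. Its level in the members ran from 39.8 CPM in tumour 45 over a median of 60.8 to 95.3 CPM in tumour 46. In the 29 other tumours it ran from 0 CPM in tumour 23 over a median of 6.99 to 38.2 CPM in tumour 10. The gap between the groups was thus narrow at its edge, while the medians lay far apart. Tumours 27 to 36 reached 35.3 CPM, in tumour 36, the neighbour of the run in number, and had a median of 4.89. The normal cortices lay between 0.98 and 20.7 CPM, with a median of 8.78. No library outside the run reached the lowest member. The means were 61.2 ± 17.5 CPM in the run (SD, n = 10) and 10.1 ± 8.73 CPM in the other tumours (SD, n = 29), and the fitted log2 fold change was 2.54 ± 0.33 (SE).

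ENSCAFG00000000868 was higher in the run than in all but a few libraries of the series. The members ran from 240 CPM in tumour 42 over a median of 348 to 707 CPM in tumour 46. The second highest member, tumour 40, held 420 CPM, so tumour 46 stood above the other members. In the other tumours the level ran from 2.29 CPM in tumour 8 over a median of 38.3 to 261 CPM in tumour 4. Tumour 4 was the only one of these 29 above the lowest member. Of tumours 27 to 36, 3 lay above that member, up to 324 CPM in tumour 31, around a median of 89.4. The normal cortices stayed between 6.52 and 107 CPM, with a median of 49.7. The fitted log2 fold change of the run over the other tumours was 2.60 ± 0.45 (SE). Limma-voom gave 3.46 with sample weights and 3.37 without them, and the range over 52 alternatives was 2.20 to 3.46.

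ENSCAFG00000025083 was low in the run. The members ran from 25.0 CPM in tumour 44 over a median of 62.5 to 116 CPM in tumour 45. The other tumours ran from 39.8 CPM in tumour 18 over a median of 310 to 795 CPM in tumour 7. Only tumours 18 and 47, at 39.8 and 101 CPM, lay at or below the highest member. Tumours 27 to 36 had a median of 327 CPM, and the lowest of them was tumour 36, at 68.7 CPM. The normal cortices had a median of 268 CPM, and their lowest, normal 4, held 63.8 CPM. The means were 61.3 ± 29.9 CPM in the run (SD, n = 10) and 332 ± 190 CPM in the other tumours (SD, n = 29). The fitted log2 fold change was -2.44 ± 0.36 (SE).

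ENSCAFG00000030286 was the most uneven of the 4. Its level in the members ran from 0.59 CPM, a single count in tumour 38, over a median of 12.0 to 91.9 CPM in tumour 37. The second highest member held 18.3 CPM, so the overlap with the other tumours came from tumour 37. The other tumours ran from 24.6 CPM in tumour 13 over a median of 133 to 2087 CPM in tumour 2, and 11 of the 29 lay below tumour 37. All of tumours 27 to 36 and all normal cortices lay above every member. Tumours 27 to 36 had a median of 508 CPM and reached 6496 CPM in tumour 35, and the normal cortices had a median of 203 CPM and reached 13667 CPM in normal 3. The fitted log2 fold change was -3.85 ± 0.74 (SE). It compares means of 17.9 ± 26.6 and 253 ± 395 CPM (SD). Without tumour 37 it was -4.68, and with tumours 27 to 36 added to the reference -4.72. The range over 52 alternatives was -4.72 to -3.41.

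**Figure D3:**
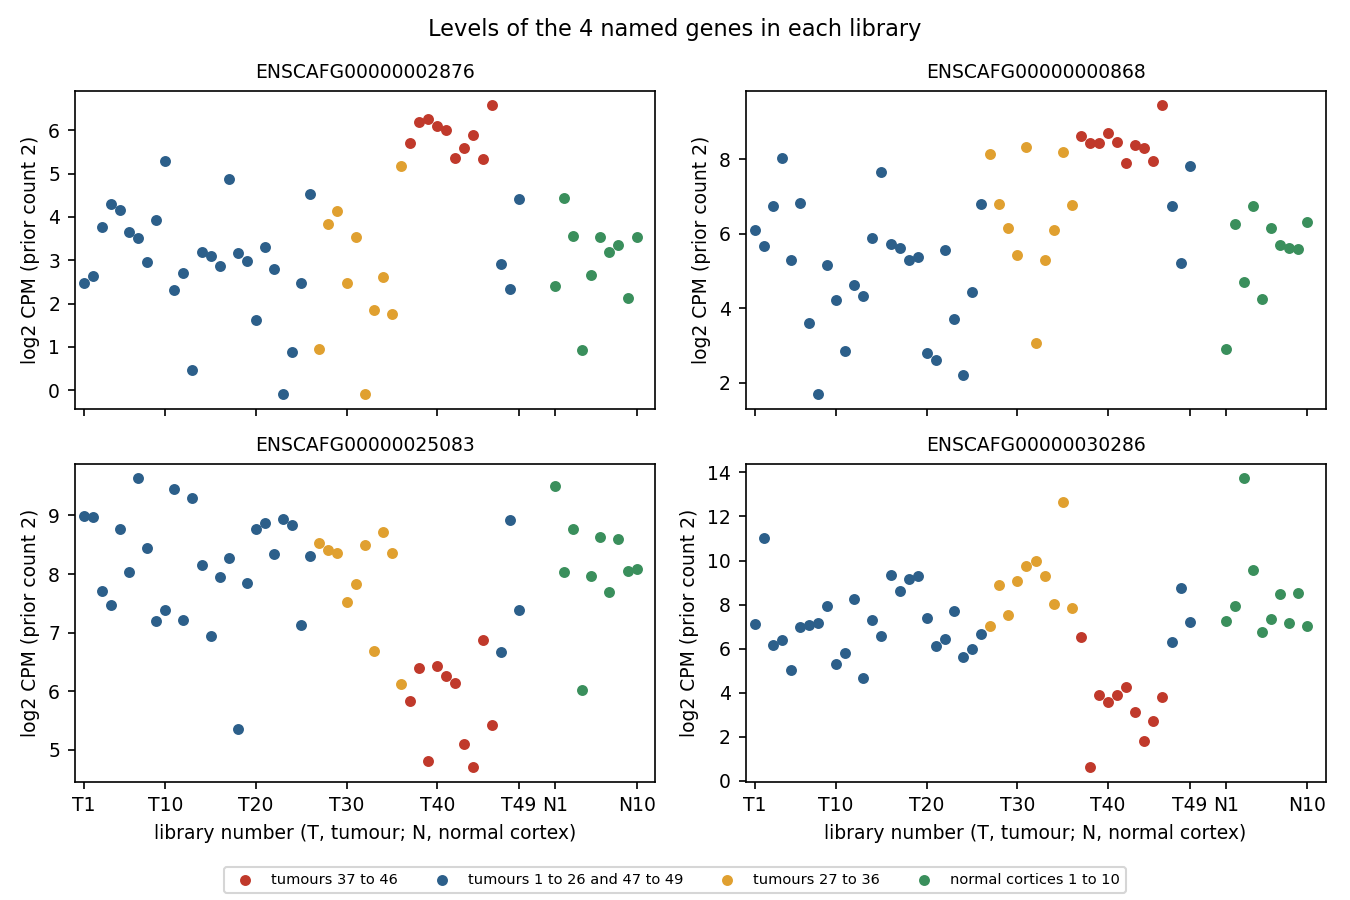
Each panel shows 1 gene, each point 1 library by its number in the titles (horizontal axis), and the level as log2 CPM with a prior count of 2 (vertical axis, not starting at 0). In the upper panels the members lie towards the top of the tumours, and in the lower panels towards the bottom. Only in the panel of ENSCAFG00000002876 do all members lie beyond every tumour outside the run. Tumour 37 lies apart from the other members in the panel of ENSCAFG00000030286.

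Each library was then placed between the groups over all called genes. For a library, the share of called genes was taken in which its log2 CPM was nearer to the median of the run than to that of the other tumours. For the 39 libraries compared, the genes were called and both medians taken without the library itself. The library still took part in the choice of the run and in the scaling of the levels. Genes also had to pass the filter on low counts with that library included. For tumours 27 to 36 and the normal cortices, the 902 genes of the full comparison were used. These genes were called because the run differed in them, so a library from any other group can fall nearer to the other tumours through that choice alone.

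All 10 members lay on the side of the run, but to different extents. Their share ran from 63.8% in tumour 37 over a median of 79.4% to 84.7% in tumour 46. Tumour 38 was second lowest, at 71.7%. The members also differed in which genes placed them there. Tumour 41 was nearer the run for 85.1% of higher genes and 69.4% of lower genes, and tumour 40 for 83.4% and 74.5%. Tumour 43 showed the opposite, with 72.8% of higher and 85.6% of lower genes, as did tumour 38, with 65.2% and 76.1%. Over the 351 higher genes the mean log2 CPM ran from 5.29 in tumour 38 to 5.68 in tumour 40, and over the 551 lower genes from 4.43 in tumour 45 to 4.71 in tumour 37. Tumour 40 was the highest member for 75 of the 351 higher genes, tumour 39 for 53, and tumours 37 and 45 for 10 each.

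Several tumours outside the run had shares within the range of the members or close to it. Among the 29 others the median was 25.6%, and the lowest was tumour 21 at 16.3%. Tumour 15 reached 64.9%, above tumour 37. Tumour 49 reached 63.0%, tumour 18 reached 62.0% and tumour 3 reached 52.9%, and the remaining 25 lay at or below 40.2%. Tumour 15 came close through the lower genes, 74.1% of which were nearer the run, against 51.9% of the higher genes. Tumour 49 was near the run for 65.2% of higher and 61.6% of lower genes. Tumour 18 correlated poorly with both groups, at a mean r of 0.829 with the run and 0.779 with the other tumours, so its share does not stand for a close likeness to the members. When it was left out, 515 genes were higher and 728 lower.

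Just inside the lower edge of the run lay tumour 37, at 63.8%, and just outside it tumour 36, at 54.2%, the highest of tumours 27 to 36. Tumour 35 held 42.7%. At the upper edge, tumour 46 was the highest member at 84.7%, and tumours 47 and 48 lay at 23.9% and 21.2%. The step was thus small at the lower edge and large at the upper edge, with tumour 49 high again beyond it. These edges were set by the choice of the run, so a step at them is part of that choice. Tumours 35 and 36 were placed with the genes and medians of the full comparison. Tumours 37 and 46 to 49 were placed without themselves, so the steps at the edges were not measured alike.

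**Figure D4:**
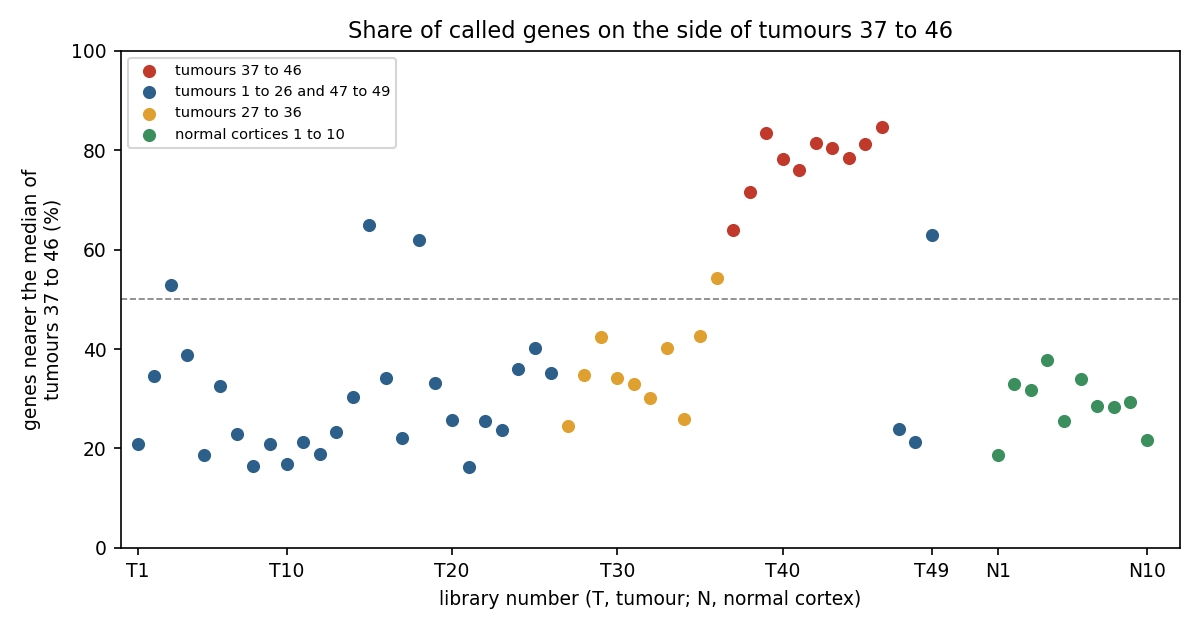
Each point is 1 library by its number in the titles (horizontal axis), with the percent of called genes in which its level was nearer to the median of tumours 37 to 46 than to that of tumours 1 to 26 and 47 to 49 (vertical axis, 50% dashed). The members lie between 63.8% and 84.7%, and tumours 3, 15, 18, 36 and 49 are the libraries outside the run above the dashed line.

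The share of the normal cortices ran from 18.6% in normal 1 over a median of 29.0% to 37.7% in normal 4, a range that the 29 other tumours also covered. The median normal level was nearer to the run than to the other tumours for 31 of the 351 higher genes (8.83%) and 74 of the 551 lower genes (13.4%). Over all 12145 genes, where the group medians mostly lie close together, that share was 37.4%. For 188 of the higher and 276 of the lower genes the normal median lay between those of both tumour groups. For 159 and 267 genes it lay at or past the other tumours on the far side, and for 4 and 8 genes at or past the run. Over all 12145 genes, with sides set by the sign of the fitted fold, these 3 counts were 3904, 5579 and 3212. Fold and difference of medians had the same sign in all called genes, but in 10465 of all 12145. Where the signs differ, a gene can enter more than 1 count, so over all genes the 3 counts overlap. Counted in this way, the share on the far side of the other tumours was close to that over all genes.

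Tumours 27 to 36 lay between 24.5% in tumour 27 and 54.2% in tumour 36, with a median of 34.5%. Their median level was nearer to the run than to the other tumours for 52 of the 351 higher genes (14.8%) and 176 of the 551 lower genes (31.9%). Over all 12145 genes it was 40.5%. For 42 lower genes they lay at or past the run, against 4 higher genes. Over all 12145 genes, with sides again set by the sign of the fitted fold, the count was 3629. With these 10 libraries added to the reference, 335 genes were higher and 527 lower, of which 266 and 433 were among the 351 and 551.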

How the data were processed

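The authors deposited 1 table of estimated counts, 28570 Ensembl identifiers by 59 libraries. The submitters' processing notes name BWA and the build CanFam3.1. The counting program, annotation release and read filters were not given in the sources used here. All values (100%) have the form of UMI numbers corrected for collisions among 4096 tags, which was read from the values. The correction ends at 34070, so a gene there has only a lower limit. The values are whole, so nothing was rounded, although plain counts had been planned for. All columns matched 1 sample each.

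Members and lists were chosen with earlier results of these data known. Genes were kept by filterByExpr by group (at least 96.7% of each library's counts), scaled by TMM, and fitted over 39 libraries with edgeR 4.0.16 (R 4.3.3, robust quasi-likelihood F test). SEs were derived from each log2 fold change and F statistic. Levels are CPM with TMM over all 59 libraries. Totals were compared with 100000 permutations (scipy 1.17.1). Counts were simulated with 200 changed genes and 1 dispersion per gene for both groups, and 12002 genes passed the filter. Of the changed genes that passed, the fit called 32%, 64.6%, 95.9% and 95.9% of those changed 1.5-, 2-, 3- and 4-fold. Of 143 calls, 2 were false. The simulation had equal spreads and no choice of a run, unlike the data. Its rates of recovery and of false calls therefore do not carry over to the genes called here.

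Named genes were called, had at least the median abundance of the genes tested (4.37 log2 CPM), never reached 34070, and ranked first by the share of member and other-tumour pairs that differed in the called direction, 2 in each direction without symbols. The planned lists and markers need symbols and were not used. Alternatives were other scaling, DESeq2 1.42.0, voom with weighted samples (limma 3.58.1) and, chosen after seeing the data, without weights, filters, a depth covariate, thinning to 1271628 counts, distinct UMIs, other references, a fold of 1.5, and each of the 39 libraries left out.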

Additional observations from a re-analysis of the deposited data

Results flagged for a closer look

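Among 21 sets of 10 libraries compared over library measures and the 4 named genes, Dixon's test set 1 library apart in 4. Chance alone does so in about 1 of 20 sets. The named genes were chosen from their levels in the run and the other tumours, so the chance rate does not hold for their values in the run. Tumour 46 had a log2 CPM of 9.47 for ENSCAFG00000000868, above the other members. Normal 4 had 6.02 for ENSCAFG00000025083, below the other normal cortices. For ENSCAFG00000030286, tumour 35 had 12.7, above the rest of tumours 27 to 36, and normal 3 had 13.7, above the other normal cortices.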

How the results depend on the processing

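The counts of 351 higher and 551 lower genes, of which 107 and 205 differed at least 2-fold, moved by more than 1.5 times in some fits. Higher genes numbered 535 with DESeq2, 1456 and 588 with limma-voom with and without sample weights, and 26 against a fold of 1.5. Lower genes numbered 1057 and 322 with limma-voom with and without weights, 39 against a fold of 1.5 and 329 when low counts were not filtered. At least 2-fold higher were 177 with DESeq2, 355 and 256 with limma-voom with and without weights, 183 with no filter, 71 with thinned counts and 26 against a fold of 1.5, and at least 2-fold lower were 39 in the last and 76 with limma-voom without weights, a fit chosen after seeing the data. The fit against a fold of 1.5 asks for a difference beyond 1.5-fold, so by design it calls fewer genes. Fewer genes (9942) and 35 libraries entered the thinned fit. The cause of the move in that fit and in the remaining ones was not tested. With each library left out in turn, 252 to 515 genes were higher, 373 to 728 lower, 97 to 175 at least 2-fold higher and 160 to 243 at least 2-fold lower, all 4 highest without tumour 18. The 4 named genes kept their direction and call in all 208 fits, which their choice in the same libraries makes likely. The mean correlation among members, 0.942, was 0.935 with a prior count of 0.5 and 0.941 to 0.946 with each member left out. The difference in log2 total ran from 0.02 to 0.10 over 41 alternatives (permutation p from 0.57 to 0.92). No paired analysis was possible because no label pairs a library of the run with one of the other tumours.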
